A study of Mus musculus with 16 samples.

Results

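The enzymes of amino acid breakdown form a list of 42 genes, taken by gene symbol, of which 40 had a probe set of their own among the 18193 genes measured on the array. They were grouped by the amino acid they degrade: 4 act on tyrosine, 6 on tryptophan, 4 on histidine, 2 on proline and hydroxyproline, 14 on the branched chain amino acids, 2 on lysine and 8 on others. The other two genes of the list, Acmsd of tryptophan and Tdh of threonine breakdown, had no probe set with a single symbol and are not analysed here. Each gene was read from the probe set with its highest mean; 24 members had 1 such probe set and 16 had several.

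The liver breaks down most amino acids that are not used for protein. Each amino acid has its own chain of enzymes in the cytosol or the mitochondria, and the nitrogen passes to urea while the carbon goes to glucose, ketone bodies or the citric acid cycle. Several of the chains are unevenly placed along the liver lobule: histidine breakdown is a known property of hepatocytes near the portal vein, and β-catenin signalling, which Ctnnb1 mutations activate, is strongest near the central vein.

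The study measured RNA from livers of male C3H/HeJ mice on expression arrays, 1 array a sample, and compared liver tumours that carried a mutation in Ctnnb1 or in Ha-ras with control liver. Per the series description, mice were given 1 injection of diethylnitrosamine (DEN), a liver carcinogen, at 10 or 90 µg per g body weight and an age of 2 or 6 weeks. After 2 weeks without treatment they ate a diet with 0.05% phenobarbital, a liver tumour promoter, or one without it, for 28 to 36 weeks. The groups were 7 Ctnnb1-mutated tumours with phenobarbital (Ctnnb1 tumours 1 to 7) against 3 control livers with phenobarbital (phenobarbital controls 4 to 6), and 3 Ha-ras-mutated tumours without phenobarbital (Ha-ras tumours 1 to 3) against 3 control livers without it (untreated controls 1 to 3). Which DEN dose and age each sample had, and whether control tissue came from the same animals as the tumours, is not given in the sources used here. Mutation and phenobarbital changed together, so that in any comparison between the tumour types they cannot be told apart. DEN dose and age may also have differed between the groups, and their part could not be tested.

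Values are log2 expression after RMA, a normalization that aligns the distributions of the arrays, whose medians lay between 5.03 and 5.10. Phenobarbital control 6 stood apart: its 3′ probe set of Gapdh exceeded the 5′ one by 2.70 (log2), against -0.15 to 0.32 on the other 15 arrays, a gap read as a sign of RNA quality. Results of fits without this array are given below, while RNA quality itself was not tested as a cause. Ctnnb1 itself averaged 12.42 ± 0.11 in Ctnnb1 tumours (SD, n = 7) and 12.38 ± 0.13 in phenobarbital controls (SD, n = 3), and 12.88 ± 0.11 in Ha-ras tumours and 12.29 ± 0.06 in untreated controls (SD, n = 3 each). An expression level says nothing on mutation. The 5 measured hepatocyte markers did not pass in any of the 4 comparisons with limma, and 1 had an unadjusted p under 0.05, in Ha-ras tumours. There 3 of the 5 were above every untreated control and 1 below, beside 16.3% and 18.5% of all genes. These markers are among the brightest genes (percentile 99.7 to 100), so they may not register a change in the share of hepatocytes. Of 8 macrophage markers, 1 fell in Ctnnb1 tumours and 4 fell in Ha-ras tumours, with a summed intensity of 2961 to 6072 in Ctnnb1 tumours against 6099 to 8907 in phenobarbital controls, and 1165 to 5201 in Ha-ras tumours against 4892 to 7883 in untreated controls. Of 8 stellate cell and fibroblast markers, 3 fell in Ctnnb1 tumours and 2 fell in Ha-ras tumours. Their sum was 1725 to 3845 in Ctnnb1 tumours against 4237 to 5826 in phenobarbital controls. In Ha-ras tumours it was 2443 to 3918, against 4655 to 5679 in untreated controls. Other markers had a log2 difference above 0: 2 of these 8 in Ctnnb1 tumours (up to 0.54) and 3 in Ha-ras tumours (up to 0.75). Of the macrophage markers, 1 was above 0 in Ctnnb1 tumours (0.83, unadjusted p under 0.05 by limma) and 0 in Ha-ras tumours. Over all genes 5.97% fell in Ctnnb1 tumours and 6.33% in Ha-ras tumours. The sums weigh bright markers most. Of 8 endothelial markers 0 passed in either tumour type by limma, with 4 lower and 1 higher in Ctnnb1 tumours and 3 lower and 3 higher in Ha-ras tumours at an unadjusted p under 0.05, while their sum was 958 to 3095 in Ctnnb1 tumours against 3530 to 4364 in phenobarbital controls, and 1499 to 3766 in Ha-ras tumours against 4375 to 4837 in untreated controls. The part of these cells in the results on the enzymes was not tested, and in bulk tissue fewer cells of a type and less RNA per cell cannot be told apart.

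In Ctnnb1 tumours, 15 of the 40 enzymes fell and 2 rose against phenobarbital controls (limma; the threshold was 0.05 after Benjamini-Hochberg adjustment across the array's genes). The 15 made up 37.5% of the enzymes, where 5.97% of all genes fell in this comparison, and the 2 made up 5%, near the 6.07% of all genes that rose. In Ha-ras tumours, 17 enzymes, or 42.5%, fell against untreated controls, where 6.33% of all genes fell. No enzyme rose in Ha-ras tumours by limma, and 0 had an unadjusted p under 0.05 in that direction, where 7.21% of all genes rose. The median log2 difference of the enzymes was -0.49 in Ctnnb1 tumours and -0.59 in Ha-ras tumours, beside -0.03 and -0.04 over all genes. Every Ctnnb1 tumour was below every phenobarbital control in 15 enzymes and above in 1, or 37.5% and 2.5%, beside 6.64% and 5.96% of all genes. Every Ha-ras tumour was below every untreated control in 31 enzymes, or 77.5%, beside 18.5% of all genes.

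Kynu, Mccc2, Acadsb and Aass, 4 in all, fell in both tumour types, which is 26.7% of the 15 and 23.5% of the 17. Over all genes 290 fell in both: 26.7% of those that fell in Ctnnb1 tumours and 25.2% of those that fell in Ha-ras tumours. The 4 are 10% of the enzymes, and the 290 are 1.59% of all genes. These shares start from unlike rates, since 42.5% of the enzymes and 6.33% of all genes fell in Ha-ras tumours. Whether the overlap exceeds or falls short of what those rates give was not tested. A further 11 fell in Ctnnb1 tumours and did not pass in Ha-ras tumours, 12 fell in Ha-ras tumours and did not pass in Ctnnb1 tumours, and 1, Csad, rose in Ctnnb1 tumours and fell in Ha-ras tumours. A gene that passes in one comparison and not in the other is not thereby shown to differ, so the difference between the changes (Ctnnb1 tumours against their controls, minus Ha-ras tumours against theirs) was tested for each gene. It passed for 9 enzymes, or 22.5%, beside 5.43% of all genes. For Hal, Uroc1 and Amdhd1 it was negative, which is 7.5% of the enzymes beside 3.29% of all genes. For Hgd, Prodh, Agxt2, Cdo1, Csad and Dpys it was positive, which is 15% of the enzymes beside 2.14% of all genes.

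**Figure D1:**
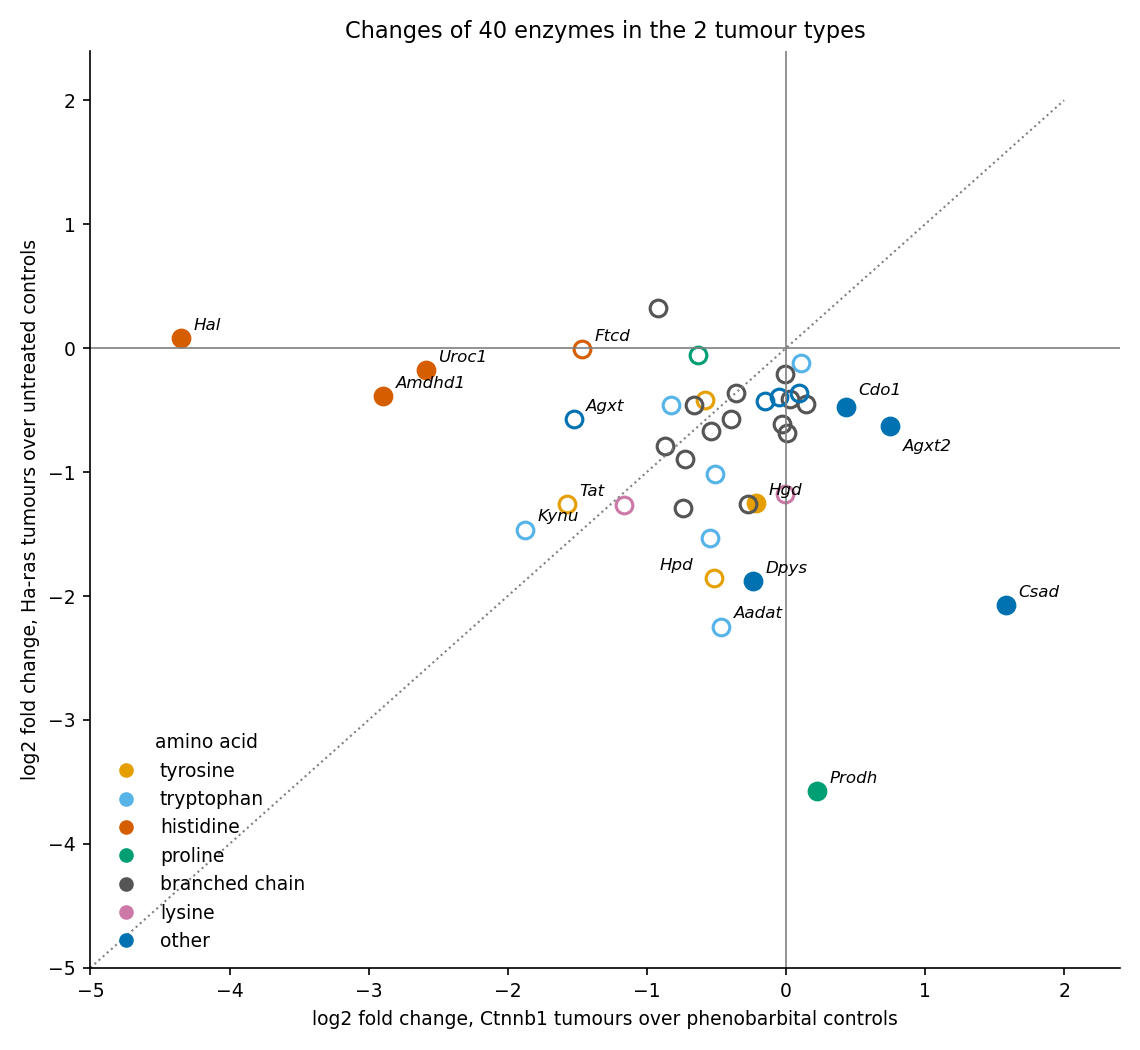
Log2 difference of each of the 40 enzymes in Ctnnb1 tumours against phenobarbital controls (horizontal axis) and in Ha-ras tumours against untreated controls (vertical axis), coloured by amino acid group, with a dotted line where both are equal. Filled points are the 9 enzymes whose difference between the changes passed; the histidine enzymes lie far left near 0 on the vertical axis, and Prodh, Csad and Dpys lie far down.

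Histidine breakdown showed the clearest split between the tumour types. All 4 of its enzymes fell in Ctnnb1 tumours, with a median log2 difference of -2.74, and 0 of the 4 passed in Ha-ras tumours by limma, where the median was -0.09 and 0 had an unadjusted p under 0.05. Averaged over the 4, the level was 8.52 ± 0.74 in Ctnnb1 tumours (SD, n = 7) against 11.34 ± 0.25 in phenobarbital controls (SD, n = 3), and 11.06 ± 0.24 in Ha-ras tumours against 11.19 ± 0.21 in untreated controls (SD, n = 3 each). The bases upstream of these genes are shown because the 4 fell together. They come from RefSeq, build GRCm38.p6, written 5′ to 3′ on the strand of the gene, without bases inside the longest annotated transcript of the gene.
Hal, chr10:93488518-93488767, plus strand: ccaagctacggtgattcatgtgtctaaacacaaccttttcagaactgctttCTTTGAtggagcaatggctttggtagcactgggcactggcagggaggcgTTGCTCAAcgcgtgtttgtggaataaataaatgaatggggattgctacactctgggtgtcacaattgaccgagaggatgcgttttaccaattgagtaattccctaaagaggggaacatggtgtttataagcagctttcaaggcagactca
Uroc1, chr6:90333039-90333238, plus strand: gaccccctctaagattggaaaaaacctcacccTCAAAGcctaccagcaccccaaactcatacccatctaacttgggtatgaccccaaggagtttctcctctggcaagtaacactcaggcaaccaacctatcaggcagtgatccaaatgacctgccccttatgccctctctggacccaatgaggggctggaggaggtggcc
Amdhd1, chr10:93540112-93540283, minus strand: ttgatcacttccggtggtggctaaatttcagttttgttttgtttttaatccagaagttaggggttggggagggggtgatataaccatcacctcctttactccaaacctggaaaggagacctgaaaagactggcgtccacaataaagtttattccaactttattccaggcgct
Ftcd, chr10:76575398-76575647, plus strand: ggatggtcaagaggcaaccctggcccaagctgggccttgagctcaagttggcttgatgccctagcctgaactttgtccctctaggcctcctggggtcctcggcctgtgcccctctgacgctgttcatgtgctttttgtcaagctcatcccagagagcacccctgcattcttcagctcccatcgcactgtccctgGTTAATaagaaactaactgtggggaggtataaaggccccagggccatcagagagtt
Capitals mark letters of the motifs searched, on either strand.

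The motifs were the core TCAAAG of the TCF/LEF factors, which act with β-catenin, and 4 motifs of liver factors: CAAAGTCCA of HNF4A, whose first letters overlap the end of the TCF/LEF core, GTTAAT of HNF1, TTGCNNAA of C/EBP, and TGTTCT of the glucocorticoid receptor. They were chosen after the expression values were known. In capitals are the TCF/LEF core of Hal and Uroc1, the C/EBP motif of Hal and the HNF1 motif of Ftcd, and the shown bases of Amdhd1 hold none of the 5. In windows of 250 bases, the TCF/LEF core stood in 13.8% of 32851 RefSeq promoters and in 10 of the 43 promoters listed for 36 of the enzymes, or 23.3%. Besides Hal and Uroc1 these belong to Aass, Agxt, Agxt2, Dao, Haao, Kmo and Upb1, genes with differing values below. The listed promoters of Agxt2 overlap and share the same match, which is counted for each of them. The HNF4A motif stood in 3 of the 43 promoters, or 6.98%, beside 0.384% of all. The 3 belong to Aadat and Agxt2, and those of Agxt2 overlap and share a single site. This count therefore rests on fewer sites than promoters. HNF1 stood in 11.6% beside 6.43%, C/EBP in 16.3% beside 9.56%, and the glucocorticoid receptor motif in 14% beside 16.1%. A match describes these letters and is not a binding site. Hal and Amdhd1 are neighbours on chromosome 10, with 0 coding genes between them.

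Hal, histidine ammonia-lyase, catalyses the first step, from histidine to urocanate. Its log2 level had a lowest value of 5.71, a median of 7.51 and a highest value of 7.93 in Ctnnb1 tumours, against 11.62, 11.43 and 11.03 in phenobarbital controls. Ha-ras tumours had 10.70, 11.22 and 11.41, against 10.85, 11.49 and 10.75 in untreated controls. Every Ctnnb1 tumour lay far below every other array, while Ha-ras tumours and their controls overlapped. The log2 change was -4.35 ± 0.43 (SE) in Ctnnb1 tumours, 20.4-fold lower (adjusted p = 4.51e-05), and 0.08 ± 0.51 in Ha-ras tumours (adjusted p = 0.947). The difference between these changes was -4.43 ± 0.67 (adjusted p = 0.000808), and it passed with each array left out in turn.

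Uroc1, urocanate hydratase, takes the second step. Its level was 7.90 at the lowest, 9.50 at the median and 10.35 at the highest in Ctnnb1 tumours, against 12.03, 11.83 and 11.70 in phenobarbital controls. In Ha-ras tumours it was 11.24, 11.32 and 11.66, against 11.73, 11.47 and 11.55 in untreated controls. Ctnnb1 tumours again did not overlap with their controls, and Ha-ras tumours did. Uroc1 fell by 2.59 ± 0.43 in Ctnnb1 tumours (adjusted p = 0.00129), and the change in Ha-ras tumours was -0.18 ± 0.50 (adjusted p = 0.872). The difference of -2.41 ± 0.66 passed narrowly (adjusted p = 0.0439) and no longer passed in 11 of the 16 fits with 1 array left out, where the adjusted p reached 0.0965. On another probe set it was -2.03 (adjusted p = 0.0677), in a limma fit of all 34945 probe sets with 1 symbol. In that fit the probe set used had an adjusted p of 0.0522.

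Amdhd1, which opens the imidazolone ring in the third step, had 6.56 at the lowest, 7.28 at the median and 8.75 at the highest in Ctnnb1 tumours, against 10.62, 10.60 and 10.05 in phenobarbital controls. Ha-ras tumours had 9.45, 10.06 and 9.91, against 9.88, 10.69 and 10.01 in untreated controls. The highest Ctnnb1 tumour was below every control, and Ha-ras tumours overlapped with theirs. Amdhd1 fell by 2.90 ± 0.37 in Ctnnb1 tumours (adjusted p = 0.000215), and its change in Ha-ras tumours was -0.39 ± 0.44 (adjusted p = 0.65). The difference was -2.51 ± 0.58 (adjusted p = 0.0173), which was lost without untreated control 1 or without Ha-ras tumour 2, where the adjusted p rose to at most 0.0563.

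Ftcd, which transfers the formimino group to tetrahydrofolate in the last step, had 9.15, 10.21 and 11.09 as lowest, median and highest value in Ctnnb1 tumours, against 11.95, 11.78 and 11.47 in phenobarbital controls. Its values were 11.85, 11.77 and 12.16 in Ha-ras tumours, against 12.10, 12.01 and 11.69 in untreated controls. The change in Ctnnb1 tumours was the smallest of the 4 but without overlap. Ftcd fell by 1.47 ± 0.29 there (adjusted p = 0.00397), and the change in Ha-ras tumours was -0.01 ± 0.34 (adjusted p = 0.995). Its difference between the changes, -1.46 ± 0.44, did not pass (adjusted p = 0.0703). The call in Ctnnb1 tumours held for all 4 histidine enzymes with each array left out in turn.

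**Figure D2:**
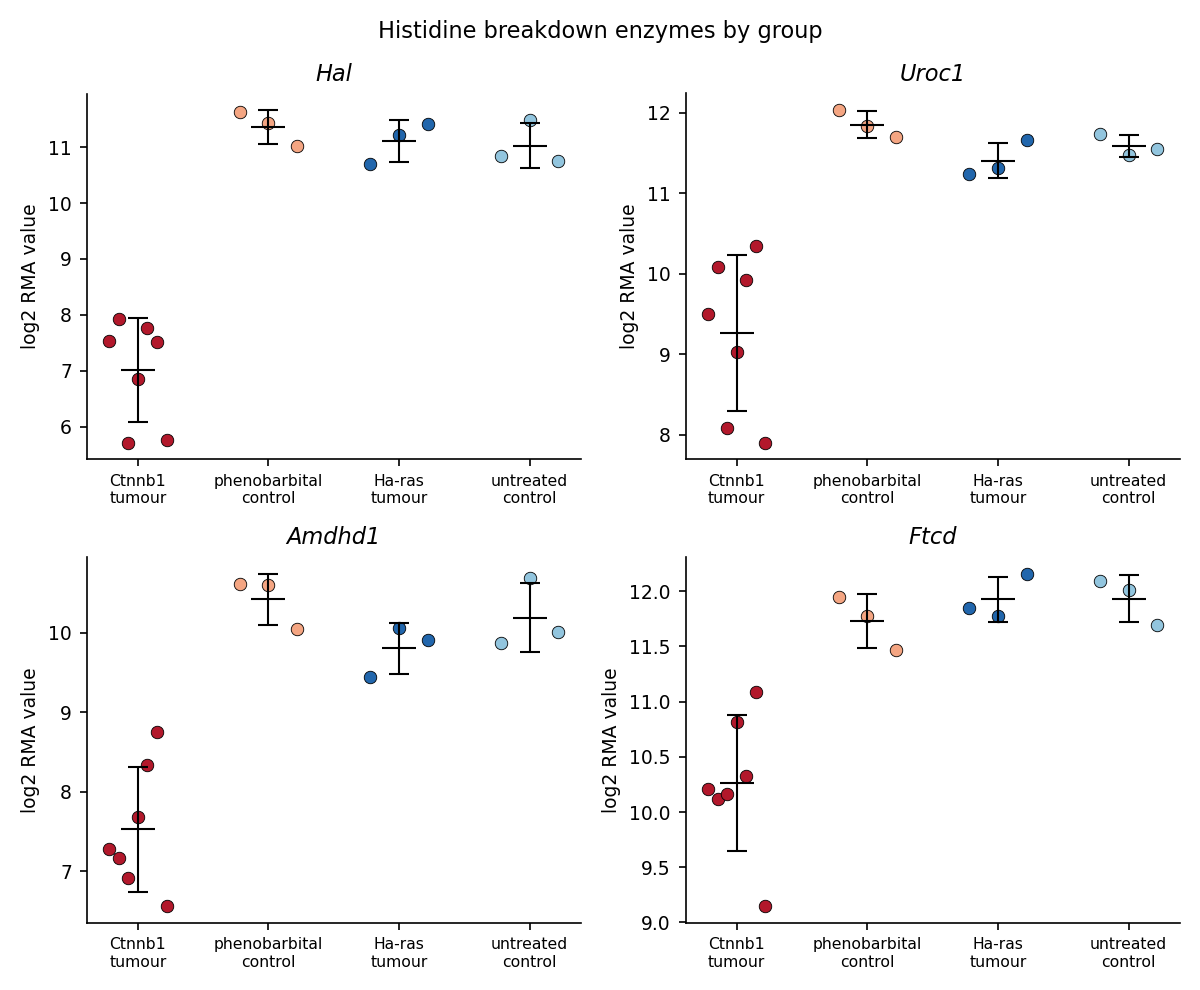
Log2 expression of Hal, Uroc1, Amdhd1 and Ftcd on each array (points) with the group mean and SD (line and bar), for 7 Ctnnb1 tumours, 3 phenobarbital controls, 3 Ha-ras tumours and 3 untreated controls. In each panel the Ctnnb1 tumours lie below the other 3 groups; for Hal they end at 7.93, against a lowest other array of 10.70.

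Of the 2 enzymes of proline and hydroxyproline breakdown, Prodh fell in Ha-ras tumours. Prodh, proline dehydrogenase of the mitochondria, had 6.93, 6.80 and 8.58 in Ha-ras tumours, against 11.37, 10.35 and 11.30 in untreated controls. In Ctnnb1 tumours its lowest, median and highest values were 9.58, 11.32 and 11.78, against 10.55, 10.76 and 11.11 in phenobarbital controls. The Ha-ras tumours were below every other array, while Ctnnb1 tumours lay on both sides of their controls, with tumour 6 lowest. Prodh fell by 3.57 ± 0.54 in Ha-ras tumours, 11.9-fold (adjusted p = 0.000305), and its change in Ctnnb1 tumours was 0.23 ± 0.45 (adjusted p = 0.802). The difference between the changes, 3.80 ± 0.70, passed (adjusted p = 0.00398), also with each array left out. Prodh2, which oxidises hydroxyproline, did not pass: its change was -0.63 ± 0.29 in Ctnnb1 tumours (adjusted p = 0.169) and -0.05 ± 0.34 in Ha-ras tumours (adjusted p = 0.947), and the difference between them was -0.58 ± 0.44 (adjusted p = 0.549). The bases upstream of Prodh, the enzyme that fell most in Ha-ras tumours, hold none of the 5 motifs in the stretch outside its longest annotated transcript.
Prodh, chr16:18089284-18089440, minus strand: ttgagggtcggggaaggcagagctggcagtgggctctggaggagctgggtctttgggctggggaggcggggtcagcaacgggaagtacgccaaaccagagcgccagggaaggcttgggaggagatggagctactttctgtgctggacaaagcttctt

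Tyrosine is degraded through Tat, Hpd, Hgd and Fah, of which Tat and Fah fell in Ctnnb1 tumours and Hpd and Hgd fell in Ha-ras tumours. The difference between the changes passed only for Hgd. Tat, the transaminase of the first step, had a lowest value of 10.16, a median of 11.20 and a highest value of 11.92 in Ctnnb1 tumours, against 12.69, 13.14 and 12.22 in phenobarbital controls. It was 10.33, 10.01 and 11.68 in Ha-ras tumours, against 12.14, 12.21 and 11.44 in untreated controls. The groups were apart in the first pair and overlapped in the second through Ha-ras tumour 3. Tat fell by 1.57 ± 0.36 in Ctnnb1 tumours (adjusted p = 0.0108), and its change of -1.26 ± 0.43 in Ha-ras tumours did not pass (adjusted p = 0.0647). The difference between the changes was -0.31 ± 0.56 (adjusted p = 0.831), so a difference in Tat between the tumour types was not detected.

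Hpd, the dioxygenase that makes homogentisate, had 11.73, 11.67 and 13.05 in Ha-ras tumours, against 13.98, 13.99 and 14.05 in untreated controls. It fell by 1.86 ± 0.33 there (adjusted p = 0.00132), and its change in Ctnnb1 tumours was -0.52 ± 0.28 (adjusted p = 0.26). The difference for Hpd, 1.34 ± 0.44, did not pass (adjusted p = 0.0962). Hgd, which opens the ring of homogentisate, had 11.47, 11.43 and 12.08 in Ha-ras tumours, against 13.00, 12.95 and 12.78 in untreated controls. Both were below every control in Ha-ras tumours, with tumour 3 nearest to the controls. Hgd fell by 1.25 ± 0.18 (adjusted p = 0.000173), its change in Ctnnb1 tumours was -0.21 ± 0.15 (adjusted p = 0.397), and the difference of 1.04 ± 0.23 passed (adjusted p = 0.0139). A further probe set of Hgd gave -0.62 in Ha-ras tumours and did not pass (adjusted p = 0.364). Fah, fumarylacetoacetase of the last step, fell by 0.58 ± 0.17 in Ctnnb1 tumours (adjusted p = 0.032), a call lost in 4 of 10 fits with 1 array left out, and its change in Ha-ras tumours was -0.42 ± 0.20 (adjusted p = 0.192). The difference for Fah, -0.16 ± 0.26, did not pass (adjusted p = 0.802).

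Tryptophan breakdown runs through the kynurenine pathway. Of its 6 measured enzymes, 2 fell in Ctnnb1 tumours (Kmo and Kynu) and 4 fell in Ha-ras tumours (Afmid, Kynu, Haao and Aadat). Tdo2, tryptophan dioxygenase, which opens the pathway in liver, passed in neither: its log2 change was 0.11 ± 0.20 in Ctnnb1 tumours (adjusted p = 0.78) and -0.12 ± 0.23 in Ha-ras tumours (adjusted p = 0.801). Its values were 13.08 at the lowest, 13.33 at the median and 13.38 at the highest in Ctnnb1 tumours, against 13.51, 13.66 and 12.39 in phenobarbital controls. Phenobarbital control 6 held the low value, and without that array the change was -0.29. Another probe set of Tdo2 fell by 0.93 in Ctnnb1 tumours (adjusted p = 0.00965), and the remaining one gave -0.50 (adjusted p = 0.0529), so the positive sign stood on 1 probe set of 3 and on 1 array.

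Kynu, kynureninase, fell in both tumour types. It had 7.82, 8.84 and 9.60 as lowest, median and highest value in Ctnnb1 tumours, against 10.87, 11.08 and 9.88 in phenobarbital controls. Ha-ras tumours had 8.65, 9.18 and 9.01, against 10.20, 10.87 and 10.17 in untreated controls. Neither pair overlapped. The change was -1.88 ± 0.32 in Ctnnb1 tumours (adjusted p = 0.0017) and -1.46 ± 0.38 in Ha-ras tumours (adjusted p = 0.0167), the second being lost without untreated control 2 or without Ha-ras tumour 1. A further, dimmer probe set fell by 1.77 in Ctnnb1 tumours (adjusted p = 0.000341) and gave -0.53 in Ha-ras tumours (adjusted p = 0.284).

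Aadat, which transaminates kynurenine and 2-aminoadipate and so also serves lysine breakdown, had 7.59, 7.87 and 8.73 in Ha-ras tumours, against 10.15, 10.54 and 10.23 in untreated controls. In Ctnnb1 tumours the lowest, median and highest values were 7.32, 8.93 and 9.17, against 9.44, 9.54 and 8.48 in phenobarbital controls. Ha-ras tumours were all below their controls, and Ctnnb1 tumours overlapped with theirs through phenobarbital control 6. Aadat fell by 2.25 ± 0.42 in Ha-ras tumours (adjusted p = 0.00183), and its change in Ctnnb1 tumours was -0.47 ± 0.36 (adjusted p = 0.444). The difference between the changes, 1.78 ± 0.55, did not pass (adjusted p = 0.0778). Aadat was also lower in every phenobarbital control than in every untreated control, a log2 difference of -1.16 ± 0.42 that did not pass (adjusted p = 0.252).

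Afmid, the formamidase of the second step, fell by 1.53 ± 0.37 in Ha-ras tumours (adjusted p = 0.0118), which was lost without Ha-ras tumour 1 or 2, and its change in Ctnnb1 tumours was -0.55 ± 0.32. Its 3 further probe sets gave -1.12, -0.54 and -0.05 in Ha-ras tumours, and none passed (adjusted p = 0.0796, 0.146 and 0.862). Haao, which cleaves 3-hydroxyanthranilate, fell by 1.01 ± 0.20 in Ha-ras tumours (adjusted p = 0.0026), and its change of -0.51 ± 0.17 in Ctnnb1 tumours did not pass (adjusted p = 0.0621). Kmo, the kynurenine hydroxylase, fell by 0.83 ± 0.21 in Ctnnb1 tumours (adjusted p = 0.0192), which was lost without phenobarbital control 5, and its change in Ha-ras tumours was -0.46 ± 0.25. For none of the 6 tryptophan enzymes did the difference between the changes pass with limma, and only Aadat had an unadjusted p under 0.05. Aadat passed when the arrays were weighted by their fit to the model.

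**Figure D3:**
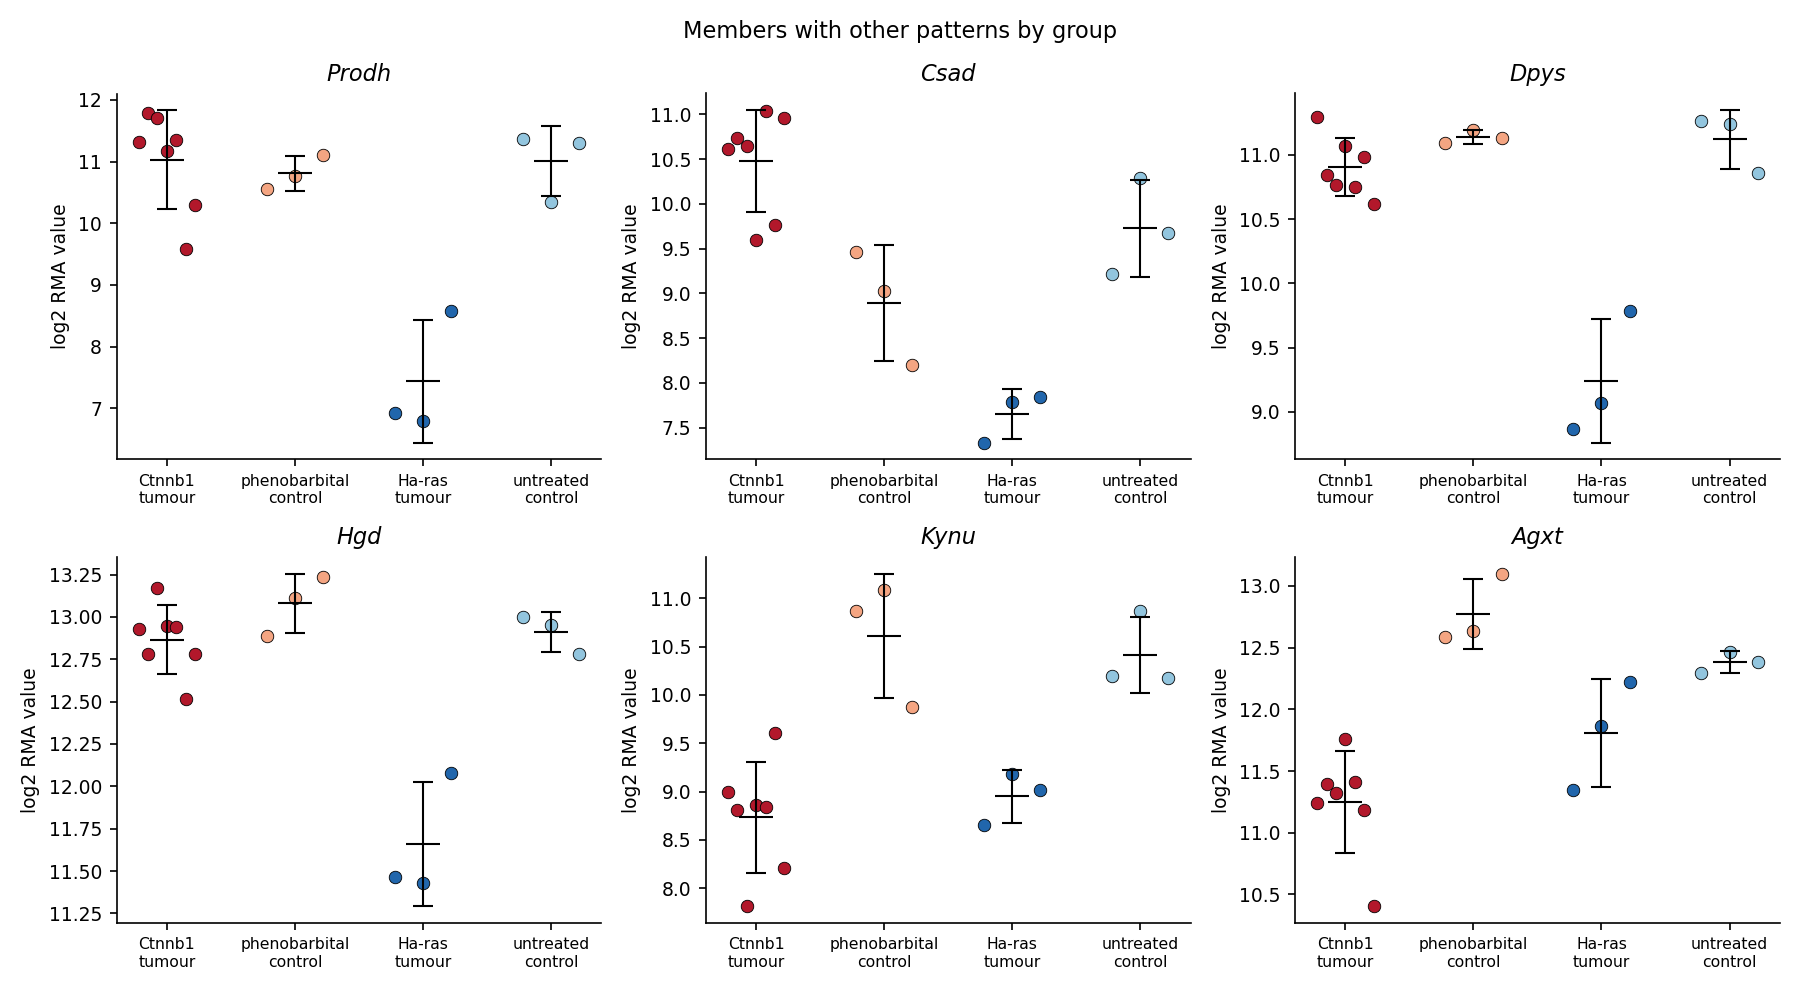
Log2 expression of Prodh, Csad, Dpys, Hgd, Kynu and Agxt on each array (points) with the group mean and SD (line and bar), in the same 4 groups. Prodh, Dpys and Hgd are lowest in the Ha-ras tumours, Csad is above its controls in Ctnnb1 tumours and below them in Ha-ras tumours, and Kynu is below its controls in both.

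The branched chain amino acids leucine, isoleucine and valine share a transaminase and the branched chain dehydrogenase complex, after which each follows its own steps in the mitochondria. Of 14 enzymes, 5 fell in Ctnnb1 tumours and 4 fell in Ha-ras tumours, with medians of -0.38 and -0.59, and the difference between the changes passed for 0 of the 14 with limma. At an unadjusted p under 0.05 that difference was negative for 1 of the 14 and positive for 3, and Bcat2 and Hibadh passed with array weights. Bcat2, the mitochondrial transaminase, fell by 0.61 ± 0.14 in Ha-ras tumours (adjusted p = 0.00918), and its change in Ctnnb1 tumours was -0.03 ± 0.12. Of the dehydrogenase complex, Dbt, its transacylase, fell by 0.92 ± 0.27 in Ctnnb1 tumours (adjusted p = 0.0392) and had a change of 0.32 ± 0.32 in Ha-ras tumours. Bckdha and Bckdhb, the subunits of the decarboxylase, passed in neither, at -0.39 and 0.03 in Ctnnb1 tumours and -0.57 and -0.41 in Ha-ras tumours.

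In the isoleucine and valine branches, Acadsb, the dehydrogenase of short branched acyl chains, had 8.69 at the lowest, 9.73 at the median and 9.86 at the highest in Ctnnb1 tumours, against 10.24, 10.40 and 10.27 in phenobarbital controls. It had 9.12, 9.11 and 9.44 in Ha-ras tumours, against 10.53, 10.54 and 10.46 in untreated controls. The tumours were below the controls in both pairs without overlap. Acadsb fell by 0.74 ± 0.20 in Ctnnb1 tumours (adjusted p = 0.0231) and by 1.29 ± 0.23 in Ha-ras tumours (adjusted p = 0.00137). Hibadh, the 3-hydroxyisobutyrate dehydrogenase of valine breakdown, had 11.48, 11.37 and 11.93 in Ha-ras tumours, against 12.89, 12.84 and 12.82 in untreated controls. It fell by 1.25 ± 0.22 there (adjusted p = 0.00106), its change in Ctnnb1 tumours was -0.27 ± 0.19, and the difference of 0.98 ± 0.29 did not pass (adjusted p = 0.0592). Acad8, the isobutyryl-CoA dehydrogenase, fell by 0.66 ± 0.18 in Ctnnb1 tumours (adjusted p = 0.0253) with overlapping arrays, and by another probe set the change was -0.44 (adjusted p = 0.126). Hibch, a hydrolase of valine breakdown, passed in neither.

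In the leucine branch, Mccc2, the β subunit of methylcrotonyl-CoA carboxylase, fell by 0.73 ± 0.18 in Ctnnb1 tumours (adjusted p = 0.0142) and by 0.90 ± 0.21 in Ha-ras tumours (adjusted p = 0.00831). Its partner subunit Mccc1 passed in neither, at 0.01 ± 0.25 in Ctnnb1 tumours and -0.68 ± 0.29 in Ha-ras tumours, and phenobarbital control 6 held its lowest value of all arrays, 8.44. Both calls for Mccc2 rest on 1 probe set: further ones gave 0.08 and -0.31 in Ctnnb1 tumours (adjusted p = 0.925 and 0.446) and -0.63 and -0.79 in Ha-ras tumours (adjusted p = 0.445 and 0.0865). Ivd, isovaleryl-CoA dehydrogenase, fell by 0.87 ± 0.27 in Ctnnb1 tumours (adjusted p = 0.0443), and its change in Ha-ras tumours was -0.79 ± 0.31 (adjusted p = 0.119), where another probe set fell by 1.06 (adjusted p = 0.0326). Auh, which hydrates methylglutaconyl-CoA, passed in neither. Outside the leucine branch, the propionyl-CoA carboxylase subunits Pcca and Pccb, of isoleucine and valine breakdown, also passed in neither. A further probe set of Pcca, dim at a mean of 4.09, was lower in Ha-ras tumours by limma (-0.86, adjusted p = 0.000151), with a difference between the changes of 1.02 (adjusted p = 0.000956), and was lower in phenobarbital controls than in untreated controls (-0.74, adjusted p = 0.0204). With the probe sets averaged, Pcca fell by 0.76 in Ha-ras tumours (adjusted p = 0.00116). All 5 falls of branched chain enzymes in Ctnnb1 tumours were lost with 1 or another array left out. In Ha-ras tumours those of Mccc2, Acadsb and Hibadh were not, and that of Bcat2 was.

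Both lysine enzymes fell in Ha-ras tumours and 1 fell in Ctnnb1 tumours. Aass, which joins lysine to 2-oxoglutarate and splits the product, had 8.80, 10.34 and 10.59 as lowest, median and highest value in Ctnnb1 tumours, against 10.93, 11.48 and 11.47 in phenobarbital controls. It had 9.98, 10.10 and 10.59 in Ha-ras tumours, against 11.42, 11.47 and 11.57 in untreated controls. The tumours of both types were below all their controls. Aass fell by 1.17 ± 0.29 in Ctnnb1 tumours (adjusted p = 0.0161), which was lost without phenobarbital control 5 or 6, and by 1.26 ± 0.34 in Ha-ras tumours (adjusted p = 0.0208), which was lost in 5 of 6 fits with 1 array left out. Gcdh, glutaryl-CoA dehydrogenase, fell by 1.18 ± 0.28 in Ha-ras tumours (adjusted p = 0.0103), lost without Ha-ras tumour 1. Its change in Ctnnb1 tumours was -0.01 ± 0.24, and -0.44 without phenobarbital control 6, whose value of 9.14 was below every Ctnnb1 tumour.

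Of the 8 other enzymes, the difference between the changes passed for Csad, Cdo1, Dpys and Agxt2. Csad, which decarboxylates cysteine sulfinate on the way to taurine, had 9.60 at the lowest, 10.64 at the median and 11.04 at the highest in Ctnnb1 tumours, against 9.47, 9.02 and 8.20 in phenobarbital controls. It had 7.33, 7.78 and 7.84 in Ha-ras tumours, against 9.21, 10.29 and 9.68 in untreated controls. Ctnnb1 tumours were all above their controls and Ha-ras tumours all below theirs. Csad rose by 1.58 ± 0.33 in Ctnnb1 tumours (adjusted p = 0.00632) and fell by 2.07 ± 0.39 in Ha-ras tumours (adjusted p = 0.00195), and the difference of 3.66 ± 0.52 passed (adjusted p = 0.000449). The rise did not hold (adjusted p = 0.0505) once phenobarbital control 6, the lowest of its group, was left out, while the fall and the difference passed with each array left out.

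Cdo1, the dioxygenase that makes cysteine sulfinate, did not pass in either tumour type, at 0.43 ± 0.15 in Ctnnb1 tumours (adjusted p = 0.0683) and -0.48 ± 0.17 in Ha-ras tumours (adjusted p = 0.0858). The difference of 0.91 ± 0.23 passed (adjusted p = 0.0279), and was lost in 5 of 16 fits with 1 array left out. Its change in Ctnnb1 tumours was 0.15 without phenobarbital control 6.

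Dpys, dihydropyrimidinase of pyrimidine breakdown, had 8.87, 9.07 and 9.78 in Ha-ras tumours, against 11.26, 11.24 and 10.86 in untreated controls. In Ctnnb1 tumours it had 10.62, 10.84 and 11.29 as lowest, median and highest value, against 11.09, 11.19 and 11.13 in phenobarbital controls. Ha-ras tumours were below every other array, and Ctnnb1 tumours overlapped with their controls. Dpys fell by 1.88 ± 0.21 in Ha-ras tumours (adjusted p = 1.97e-05), its change in Ctnnb1 tumours was -0.23 ± 0.18 (adjusted p = 0.43), and the difference of 1.64 ± 0.27 passed (adjusted p = 0.00173). A further probe set of Dpys gave a difference of 2.07, which passed (adjusted p = 0.0126). On another, dim at a mean of 4.85, the difference was 2.26 and did not pass (adjusted p = 0.0688). Upb1, which takes the next step, passed in neither, at -0.15 ± 0.14 in Ctnnb1 tumours and -0.42 ± 0.16 in Ha-ras tumours, and the difference of 0.27 ± 0.21 did not pass (adjusted p = 0.557).

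The glyoxylate aminotransferases Agxt and Agxt2 had opposite signs in Ctnnb1 tumours. Agxt, which turns glyoxylate into glycine in peroxisomes, had 10.41, 11.32 and 11.76 as lowest, median and highest value in Ctnnb1 tumours, against 12.58, 12.63 and 13.10 in phenobarbital controls. Agxt2, the mitochondrial enzyme, had 10.43, 11.00 and 11.39 in Ctnnb1 tumours, against 10.41, 10.47 and 9.89 in phenobarbital controls. Agxt did not overlap between the groups, and Agxt2 overlapped by its lowest tumour. Agxt fell by 1.53 ± 0.23 in Ctnnb1 tumours (adjusted p = 0.00064), and its change in Ha-ras tumours was -0.57 ± 0.27 (adjusted p = 0.195). Agxt2 rose by 0.75 ± 0.17 in Ctnnb1 tumours (adjusted p = 0.0103), a call that did not hold when phenobarbital control 6 was left out (adjusted p = 0.0755), and its change in Ha-ras tumours was -0.62 ± 0.20 (adjusted p = 0.0521). The difference between the changes passed for Agxt2, at 1.37 ± 0.26 (adjusted p = 0.00525), and did not for Agxt, at -0.95 ± 0.35 (adjusted p = 0.147). Got2, the mitochondrial aspartate transaminase, and Dao, D-amino acid oxidase, fell by 0.39 ± 0.12 and 0.36 ± 0.12 in Ha-ras tumours (adjusted p = 0.0462 and 0.0483). Both calls were lost in 5 of 6 fits with 1 array left out, and Dao was dim, at 4.63 to 5.19 over its Ha-ras and untreated arrays. In the limma fit of all probe sets with 1 symbol, 3 further probe sets of Got2 did not pass (-0.45, -0.10 and 0.042). The Got2 probe set used did not pass in that fit either (adjusted p = 0.0557).

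**Figure D4:**
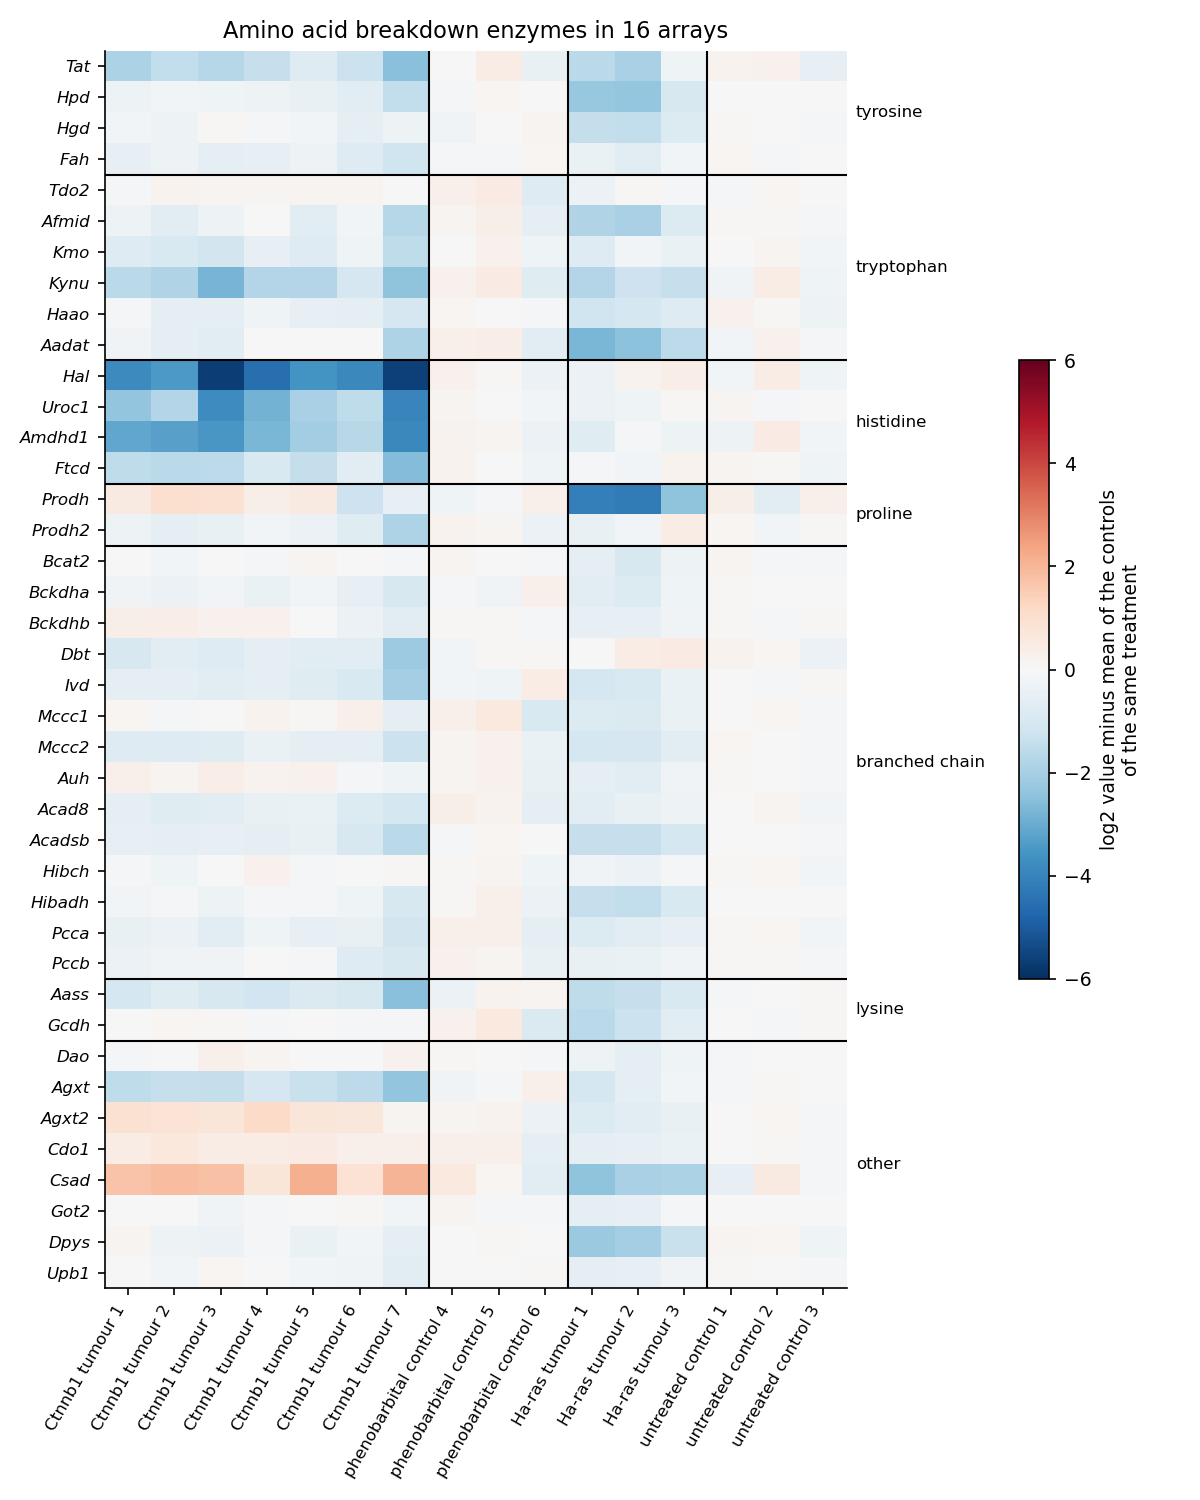
Log2 expression of each of the 40 enzymes (rows, grouped by amino acid) on each of the 16 arrays (columns), minus the mean of the controls with the same treatment; blue is lower and red is higher. The histidine rows are blue in the 7 Ctnnb1 tumours and near white in the Ha-ras tumours, and Prodh, Csad and Dpys are blue in the Ha-ras tumours.

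Single tumours differed in how far the enzymes were lowered. Ctnnb1 tumour 7 was the lowest of its group in 29 of the 40 enzymes and the highest in 0; its mean over the enzymes was 9.44, against 10.05 to 10.26 in the other 6 Ctnnb1 tumours. Ha-ras tumour 3 was the highest of its group in 36 of 40. Among controls, phenobarbital control 6 was the lowest of its 3 in 27 of 40 enzymes. The same counts over all genes are not given here, so these may not be particular to the enzymes. Without phenobarbital control 6, 11 enzymes fell in Ctnnb1 tumours and 0 rose, and 1337 of all genes passed, beside 2192 with all arrays. Without phenobarbital control 5, 7 enzymes fell and 2219 of all genes passed, and without phenobarbital control 4, 9 enzymes fell. Without Ha-ras tumour 1, 11 enzymes fell in Ha-ras tumours, and without Ctnnb1 tumour 7 all calls in Ctnnb1 tumours stood. The 7 falls in Ctnnb1 tumours that held with each array left out were those of Hal, Uroc1, Amdhd1, Ftcd, Tat, Kynu and Agxt. The 10 that held in Ha-ras tumours, on the probe sets used, were those of Hpd, Hgd, Haao, Aadat, Prodh, Mccc2, Acadsb, Hibadh, Csad and Dpys.

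**Figure D5:**
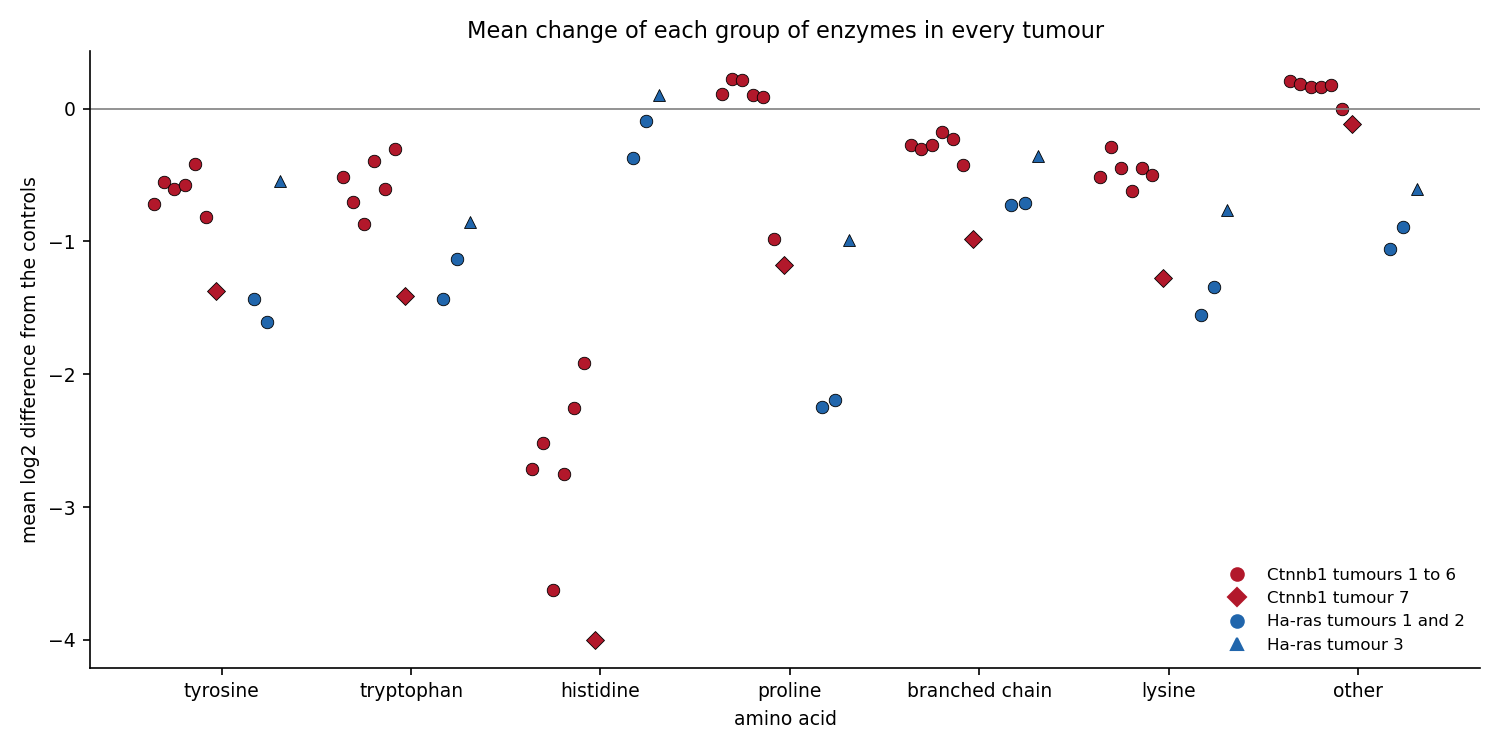
Mean log2 difference from the controls of the same treatment (vertical axis) over the enzymes of each amino acid group (horizontal axis), for each of the 7 Ctnnb1 tumours and 3 Ha-ras tumours (points); the diamond is Ctnnb1 tumour 7 and the triangle is Ha-ras tumour 3. The histidine mean is -1.92 or lower in every Ctnnb1 tumour and lies between -0.38 and 0.10 in Ha-ras tumours.

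Phenobarbital controls were also compared with untreated controls. These groups differed in phenobarbital and may have differed in DEN dose and age, which could not be told apart from it. By limma 0 of the 40 enzymes passed, where 0.214% of all genes did, and 2, Aadat and Dao, had an unadjusted p under 0.05, both lower, and 0 passed with each array left out in turn. Over all genes 0.0824% passed and were lower in phenobarbital controls. The median log2 difference was -0.17 over the enzymes and -0.02 over all genes. The mean over the enzymes was 10.78 and 10.83 in phenobarbital controls 4 and 5, and 10.43 in phenobarbital control 6. Untreated controls had 10.73 to 10.88, so only phenobarbital control 6, the array with the Gapdh gap, lay below them. In 7 enzymes every phenobarbital control was below every untreated control, or 17.5%, beside 9.44% of all genes, and in 2, Tat and Agxt, every one was above, or 5%, beside 9.4%. Both groups also serve as controls of the tumour comparisons, so these values are not independent of the changes given above. With 3 arrays a group, a difference of the size seen for Tat, 0.75 ± 0.43 (adjusted p = 0.456), could not be told from 0.

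A wider list of 34 other genes of amino acid and pyrimidine breakdown had 30 measured. In Ctnnb1 tumours 6 fell and 1 rose, or 20% and 3.33%, beside 5.97% and 6.07% of all genes, with a median of -0.10 beside -0.03. Among them Got1, the cytosolic aspartate transaminase, fell by 3.17 ± 0.71, Dpyd, the first enzyme of pyrimidine breakdown, fell by 1.12 ± 0.20, Ido2, a further tryptophan dioxygenase, fell by 0.96 ± 0.28, and Maoa, monoamine oxidase A, rose by 2.50 ± 0.50 (adjusted p = 0.00927, 0.002, 0.0331 and 0.00467). In Ha-ras tumours 9 fell, or 30%, beside 6.33% of all genes, with a median of -0.40 beside -0.04. The largest falls were those of Oat, ornithine aminotransferase, at -2.95 ± 0.78, Ddc, aromatic amino acid decarboxylase, at -2.15 ± 0.58, Dhtkd1, of the lysine pathway, at -2.05 ± 0.35, and Ppm1k, the phosphatase that activates the branched chain dehydrogenase, at -1.80 ± 0.38 (adjusted p = 0.0184, 0.0211, 0.000977 and 0.00431). The difference between the changes passed for Maoa, at 3.14 ± 0.77, and Ddc, at 2.76 ± 0.76 (adjusted p = 0.0254 and 0.0456). These 2 are 6.67% of the 30, near the 5.43% of all genes.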

How the data were processed

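RNA of 16 liver samples was measured on 1 array each. Per the submitters' processing notes, the authors made RMA values in R 2.14.1, and the deposited log2 values of each probe set were used as they are. Of 45101 probe sets, 34945 had 1 gene symbol in the platform annotation, 932 had several, 9160 had none and 64 were array controls; 34741 of those with 1 symbol were matched to RefSeq by Entrez identifier and 0 were renamed. The probe set with the highest mean stood for its gene. All 16 arrays entered a single linear model with a term for each group (limma version 3.58.1, R version 4.3.3, lmFit and eBayes), which gave log2 differences and standard errors for 4 comparisons. The threshold was an adjusted p (Benjamini-Hochberg, 18193 genes) of 0.05, and only genes past it are said to have risen or fallen. Values of further probe sets come from a separate limma fit of the 34945 probe sets with 1 symbol, adjusted over these. Their adjusted p is therefore not on the same footing as that of the genes. The fit was tested on simulated data. No 2 arrays were copies (highest correlation 0.993). All enzymes on the array could be named, and of the 34 other breakdown genes the 4 with the largest change among those that passed in a comparison. The enzymes and lists were chosen with earlier results of these data known. The labels do not say that samples came from separate animals, so p-values measure the spread between these samples. The texts differ on the phenobarbital course, which is 27 weeks in drinking water in the sample labels. Whether replicate numbers of tumours and controls pair the samples is not settled. With the same number, the correlation of their deviations ran from -0.12 to 0.40, and with different numbers from -0.32 to 0.15. The same-number values were 0.03, 0.40 and 0.24 for Ha-ras tumours 1, 2 and 3, and the last 2 were the highest of all pairs. Alternatives were other probe sets, a filter on dim genes, median centring, a trend with robust fit, array weights, fits of the compared groups alone, a replicate block and each array left out. The number of arrays limits the precision.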

Additional observations from a re-analysis of the deposited data

Results flagged for a closer look

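In 12 enzymes, Ctnnb1 tumour 7 lay far below the other 6 Ctnnb1 tumours by Dixon's test, which chance passes in about 1 of 20 groups. Its log2 values were 12.51 for Hpd, 7.82 for Afmid, 7.32 for Aadat, 8.04 for Prodh2, 9.77 for Bckdha and 7.47 for Dbt. They were 8.23 for Ivd, 8.34 for Mccc2, 8.69 for Acadsb, 11.60 for Hibadh, 8.80 for Aass and 10.41 for Agxt. The next lowest tumour had 8.73 for Dbt and 10.14 for Aass.

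In 9 enzymes the change in Ctnnb1 tumours differed from that in Ha-ras tumours by the interaction term in limma. The log2 difference between the changes was -4.43 for Hal, -2.51 for Amdhd1 and -2.41 for Uroc1. It was 3.80 for Prodh, 3.66 for Csad, 1.64 for Dpys, 1.37 for Agxt2, 1.04 for Hgd and 0.91 for Cdo1. Mutation and phenobarbital cannot be told apart in these differences.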

How the results depend on the processing

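With array weights, 29 enzymes fell in Ha-ras tumours, 11 had a positive difference between the changes, and the counts over all genes were 3775 in Ha-ras tumours, 1547 for the difference and 242 for phenobarbital. The compared groups alone gave 19 genes for phenobarbital, ended 5 calls in Ctnnb1 tumours (Fah, Dbt, Ivd, Acad8, Acadsb) and 3 in Ha-ras tumours (Bcat2, Dao, Got2), and added 5 there (Ivd, Mccc1, Pcca, Agxt2, Cdo1). Whether the replicate numbers pair the samples is not settled. In a fit with them as a replicate block, Ctnnb1 tumours 1, 2, 3 and 7 share no number with a control and add nothing to the change. In that fit 8 enzymes fell and 1 rose in Ctnnb1 tumours, with 804 genes called. The calls of Tat, Fah, Kmo, Dbt, Ivd, Mccc2, Acad8 and Csad ended there. With each array left out in turn, in Ctnnb1 tumours 7 to 15 enzymes fell (7 without phenobarbital control 5) and 0 to 3 rose. The number of genes that passed there ran from 1337, without phenobarbital control 6, to 2219, beside 2192 with all arrays. In Ha-ras tumours 11 to 19 fell and 1698 to 2273 genes passed. The difference between the changes was negative for 1 to 5 enzymes (1 without untreated control 1 or Ha-ras tumour 2, 5 without Ctnnb1 tumour 7), positive for 5 to 11 (10 without Ctnnb1 tumour 7, 11 without Ha-ras tumour 3), and passed for 648 to 1177 genes, and phenobarbital gave 3 to 68 genes (3 without phenobarbital control 4, 68 without 5). Of 16 enzymes with several probe sets, 7 had the same sign on all in Ctnnb1 tumours (not Tdo2, Mccc1, Mccc2, Auh, Hibch, Hibadh, Pcca, Got2 and Dpys) and 14 in Ha-ras tumours (not Auh and Got2). Where either probe set passed, the direction turned for Tdo2 in Ctnnb1 tumours, at -0.93 by its probe set of highest variance, for Mccc2 in Ctnnb1 tumours, at 0.080 by another probe set, and for Got2 in Ha-ras tumours, at 0.042 by another. The difference for Hgd was lost when probe sets were averaged (adjusted p = 0.176). The cause of these shifts was not tested. With 3 arrays in most groups, small changes could not be detected, and Dao lay near the background of the array.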
